A study of Rattus norvegicus with 4 samples.

Results

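The axon guidance ligands and receptors examined here are the semaphorins, plexins, neuropilins, ephrins, Eph receptors, Slits, Robo receptors, netrins, Dcc and the Unc5 receptors. They were taken by gene symbol from the deposited tables of rat hippocampal cultures, which gave 69 of 22714 genes, 35 ligands and 34 receptors. By the same symbols, 35 of 8192 m6A peaks in the untreated list and 32 of 8183 in the exposed list belonged to them. The study exposed primary rat hippocampal neurons to bisphenol A (BPA), an industrial plasticiser with oestrogen-like activity, and mapped N6-methyladenosine (m6A), a methyl mark on adenosines inside mRNA. In that assay an antibody to m6A pulls down RNA fragments (IP), and RNA is also sequenced without pull-down (input). The 4 samples were 1 library each of Ctrl_Input and Ctrl_IP, from neurons with no treatment, and of BPA_Input and BPA_IP, from neurons given 1 mM BPA for 48 h from day 12 in vitro. The end of exposure is labelled day 13 for BPA_Input and day 14 for BPA_IP. All cultures received the mitotic inhibitor Ara-C on day 7, and the labels used here name no strain, age or genetic change; they do not say whether libraries came from separate cultures. Below, Ctrl and BPA stand for the untreated and the exposed library or peak list. With 1 library per group no difference has a replicate check or a test, and every interval below covers counting error only.

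Guidance cues steer the growing axon tip by attraction or repulsion, and in the mature hippocampus many of them also shape dendritic spines and synapses. Semaphorins act through plexins, and the secreted Sema3 proteins mostly need a neuropilin as co-receptor. Ephrins sit on the cell surface, the A class by a lipid anchor and the B class by a transmembrane segment, and bind Eph receptor tyrosine kinases on a neighbouring cell. Slits repel axons through Robo receptors. Netrins attract through Dcc and repel through Unc5 receptors.

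The input libraries held 9837064 (Ctrl) and 9774929 (BPA) deposited counts, of which the 69 genes took 0.549% and 0.567%. All 10 genes of a neuronal marker list were detected, such as the vesicular glutamate transporter Slc17a7 at an FPKM of 269 (Ctrl) and 317 (BPA). The list was meant for pyramidal neurons, but some of it, such as Map2, Tubb3, Snap25 and Rbfox3, marks neurons in general. FPKM is a read level per transcript length and library size. Astrocyte markers were also abundant. The summed FPKM of 8 astrocyte markers was 7223 in Ctrl and 6660 in BPA, against 1171 and 1286 for the 10 neuronal markers. Of the astrocyte markers 7 were lower in the BPA library, and of the 10 neuronal markers 9 were higher. Interneuron markers went the other way: of 5 with 10 or more counts on average, 1 was higher and 4 were lower. The summed FPKM of 8 microglial markers was 117 and 115, of 9 oligodendrocyte lineage markers 168 and 175, of 10 vascular and fibroblast markers 119 and 134, and of 6 interneuron markers 147 and 132. The endothelial marker Cldn5 was listed at 0 in both libraries. The part of these cell types in the values below was not tested, and in bulk RNA fewer cells of a type and less RNA per cell cannot be told apart.

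Every guidance family had members with clear levels in these cultures. Both inputs reached an FPKM of 1 for 56 of the 69 genes (81.2%), against 54.3% of all genes, an FPKM of 10 for 33 and of 30 for 11. The highest over both libraries was Nrp2, co-receptor for secreted semaphorins, with an FPKM of 73.7 in Ctrl and 67.1 in BPA. It was followed by the transmembrane ligand Efnb3 (67.2 and 72.0), the receptor Epha4 (66.7 and 70.7) and the Sema4 receptor Plxnb2 (69.4 and 62.3). These 4 genes were the highest in both libraries. At the other end, Epha1, Ntn3, Ntn5, Robo3, Robo4 and Sema3g had means under 10 counts, from 0 to 7.07 counts in a library. Robo4, known from endothelial cells, had 0 counts in both libraries, and a count of 0 allows up to 3 counts per library.

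**Figure D1:**
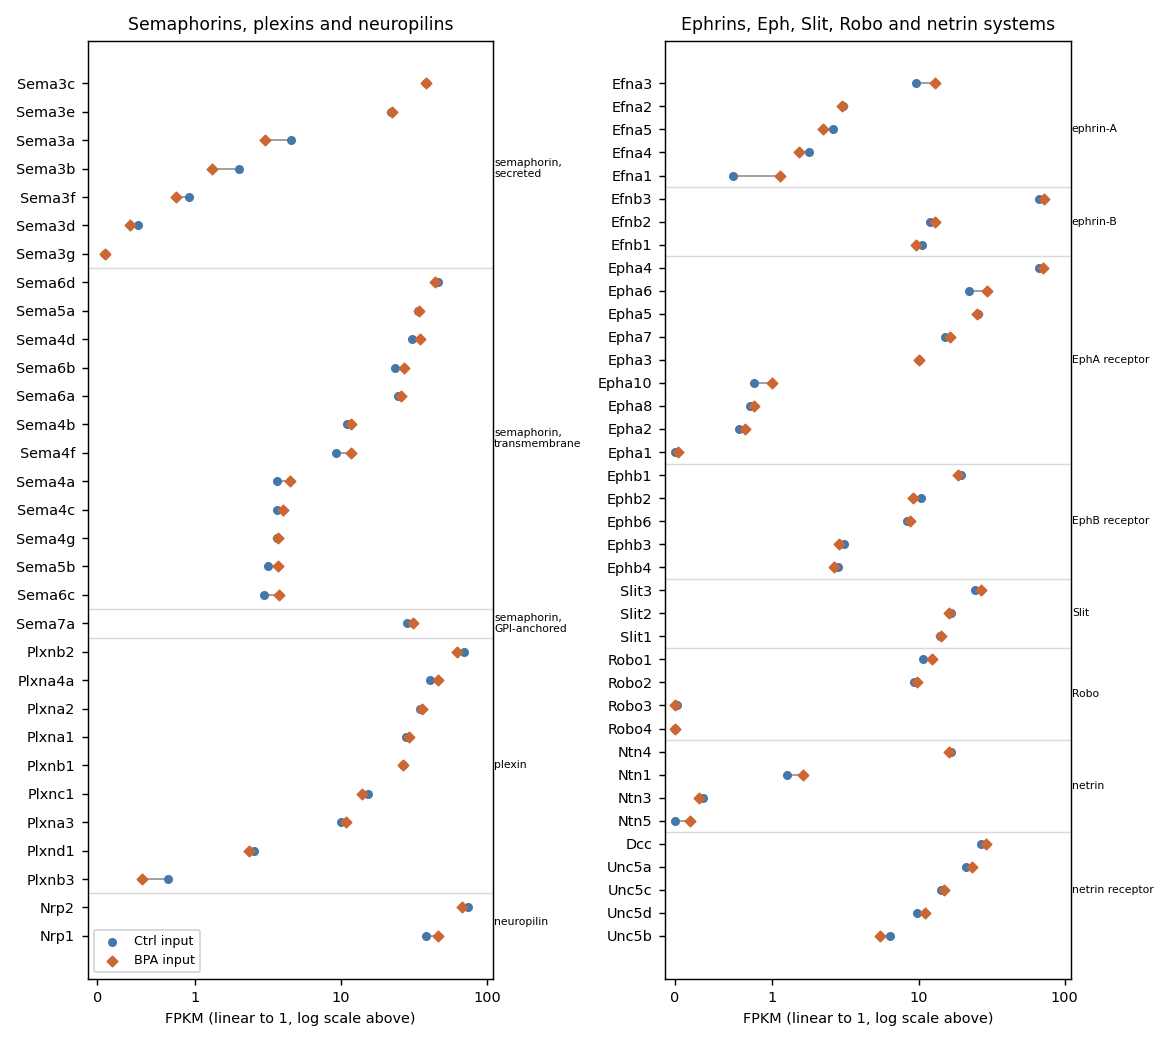
FPKM (x axis, linear up to 1 and logarithmic above) of each of the 69 genes in the Ctrl input (circles) and the BPA input (diamonds), 1 library each, grouped by family and joined by a line. Levels run from 0 for Robo4 to 73.7 for Nrp2, and the symbols of each gene lie close together.

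The first comparison asked which guidance genes differed in level between exposed and untreated cultures. No guidance gene with enough counts differed by 2-fold. Of the 63 with 10 or more counts on average, none was higher or lower by a log2 ratio of 1, log2((BPA + 1)/(Ctrl + 1)), against 1.04% of 13006 genes that were higher and 0.984% that were lower. A ratio that was 0.58 or more from 0 on the log2 scale was reached by 4 of the 63 (6.35%), close to the 6.37% of all genes, and by 1 (Efna1) with a pseudocount of 5. The fold was scaled by the library totals, and its exact 95% counting interval left out 1 on the upper side for 11 of the 63 (17.5%) and on the lower side for 3 (4.76%). The same held for 10.2% and 8.41% of all genes. The median log2 ratio of the 63 was 0.050, beside 0.0019 over all genes, and 41 of them had a ratio above 0, against 50.4% of all genes. Intervals off 1 were more frequent among deeply counted genes, as they were in the whole table. Of 17 guidance genes with means from 1000 to 10000 counts, 7 had an interval above 1 and 2 below it, where 17.6% and 13.4% of all genes at that depth did.

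**Figure D2:**
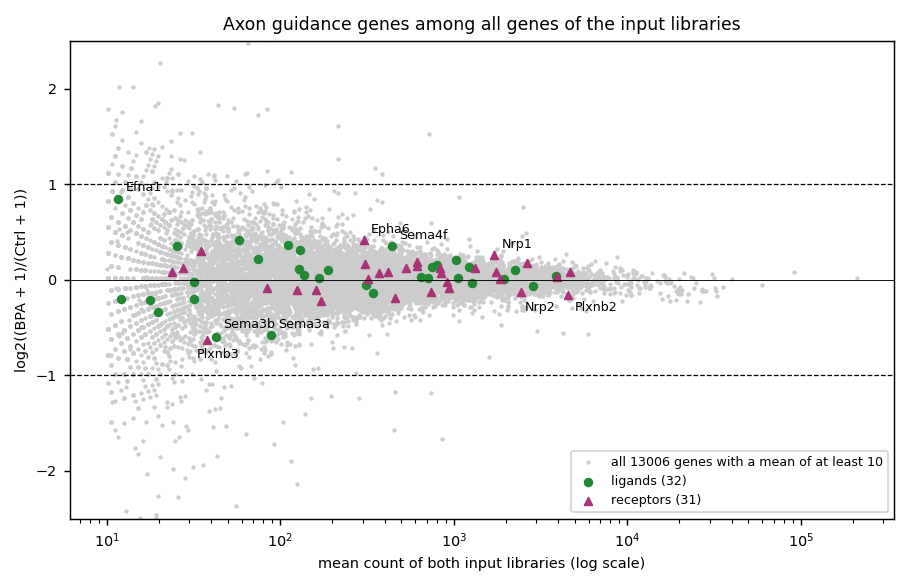
Log2 ratio of BPA over Ctrl counts (y axis, pseudocount 1) against the mean count of both inputs (x axis, log scale) for all 13006 genes counted 10 or more times on average (grey), 32 ligands (circles) and 31 receptors (triangles). Dashed lines mark 2-fold. No ligand or receptor lies beyond them. Of the grey points, 58 lie outside the plotted range.

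Among ligands, the medians of the secreted and the transmembrane semaphorins lay on different sides of 0. The 6 secreted semaphorins with enough counts had a median log2 ratio of -0.27, with 4 lower and 2 higher. The 4 lower ones were sparse, with at most 106 counts in a library, and only Sema3a had an interval off 1. Of 12 transmembrane semaphorins 11 were higher, with a median of 0.12, but only 2 had an interval above 1. Whether these groups differ was not tested. Sema3a, the classical repellent for hippocampal and cortical axons, had 106 counts in Ctrl and 70.5 in BPA. That is 0.670-fold (95% counting interval 0.492 to 0.919), the lowest fold of any guidance gene whose interval left out 1. Sema3b, another secreted repellent, had 51.5 and 33.7 counts (0.659-fold, 0.421 to 1.06), so its interval held 1. The more abundant secreted members had folds near 1. Sema3c had 1946 and 1957 counts (1.01-fold, 0.950 to 1.08) and Sema3e, the ligand of Plxnd1, had 1051 and 1064 (1.02-fold, 0.935 to 1.11). Both intervals held 1. Sema3d and Sema3f were low, between 17.4 and 34.3 counts, with intervals that held 1.

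Of the transmembrane semaphorins, Sema4f and Sema6b had intervals above 1. Sema4f, found at glutamatergic synapses, had 389 counts in Ctrl and 497 in BPA (1.29-fold, 1.12 to 1.47). Sema6b had 953 and 1103 counts (1.16-fold, 1.07 to 1.27). Sema6c had the largest log2 ratio of the group, 0.36, from 97.9 and 125.7 counts, but its interval held 1 (1.29-fold, 0.986 to 1.70). The most abundant by FPKM was Sema6d, a ligand of Plxna1, with 2919 and 2798 counts (0.964-fold, 0.916 to 1.02), the only transmembrane semaphorin with a ratio under 0. The other 8 had folds between 1.02 and 1.25 with intervals that held 1. Sema7a, which is held to the membrane by a lipid anchor and binds Plxnc1 and integrins, had 756 and 842 counts (1.12-fold, 1.01 to 1.24).

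Among plexins, the signalling receptors of the semaphorins, Plxna4a was higher and Plxnb2 lower in the BPA library. Plxna4a, the file's name for plexin A4, had 2490 and 2820 counts (1.14-fold, 1.08 to 1.20). Plxnb2 had 4780 and 4291 counts (0.904-fold, 0.867 to 0.942). The remaining 7 plexins had intervals that held 1, including Plxna2 (3924 and 4000 counts) and Plxnb1, the receptor of Sema4d (1834 and 1846). Plxnb3 had the largest log2 ratio of the family in size, -0.63, but rested on 46.4 and 29.6 counts (0.642-fold, 0.400 to 1.06). The deposited locus of Plxna3 and Plxnb3 is on chromosome 1, while the annotation column beside it gives X.

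The neuropilins lay on opposite sides of 1. Nrp1, the co-receptor of Sema3a, had 1559 counts in Ctrl and 1864 in BPA (1.20-fold, 1.12 to 1.29). Nrp2, which prefers Sema3f and Sema3c, had 2569 and 2341 counts (0.917-fold, 0.867 to 0.970). Their FPKM values were therefore closer to each other in BPA (46.1 for Nrp1 and 67.1 for Nrp2) than in Ctrl (38.5 and 73.7). Sema3a and Nrp1 lay on opposite sides of 1 as well.

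Of the ephrins, 4 had a ratio above 0 and 4 below. Efnb3 had 2195 counts in Ctrl and 2353 in BPA (1.08-fold, 1.02 to 1.14), and its interval alone among the 8 ephrins left out 1. Efnb1 had 360 and 326 counts (0.911-fold, 0.782 to 1.06). The ephrin-A ligands were sparse. Efna3, a ligand of Epha4 known from astrocytes, had 49.5 and 66.4 counts (1.35-fold, 0.923 to 2.00), and Efna1 had 8.08 and 15.3 counts (1.91-fold, 0.751 to 5.14). Both intervals held 1, so no difference was detectable at this depth.

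The ratios of their receptors mostly differed in sign by class. Of 8 EphA receptors with enough counts 7 had a ratio above 0 (median log2 ratio 0.10), but only Epha4 and Epha6 had an interval off 1. Of 5 EphB receptors 4 had a ratio below 0 (median -0.085). Again this contrast was not tested. Epha6 had 259 counts in Ctrl and 347 in BPA. Its fold of 1.34 (1.14 to 1.59) was the highest of any guidance gene whose interval left out 1. Epha4, which acts in dendritic spines, had 4572 and 4846 counts (1.07-fold, 1.02 to 1.11). Epha3, Epha5 and Epha7 had between 321 and 922 counts and folds from 0.992 to 1.09, and their intervals held 1. Epha2, Epha8 and Epha10 were sparse, between 23.2 and 38.8 counts in a library, and their intervals held 1 too. No EphB receptor had an interval off 1. Ephb1, the most abundant of them by FPKM, had 966 and 912 counts (0.950-fold, 0.867 to 1.04), and Ephb2, which binds NMDA receptors at the synapse, had 488 and 427 (log2 ratio -0.19).

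All 3 Slits and the receptors Robo1 and Robo2 were well expressed. Slit3 had 1166 counts in Ctrl and 1280 in BPA (1.10-fold, 1.02 to 1.20). Robo1 had 572 and 652 counts (1.15-fold, 1.02 to 1.29). Slit1 (712 and 721 counts), Slit2 (1289 and 1258) and Robo2 (821 and 863) had intervals that held 1. In the netrin system the receptor Dcc had 1273 and 1389 counts (1.10-fold, 1.02 to 1.19). Ntn4, a netrin that binds laminins of the basement membrane, was the only abundant netrin, with 319 and 307 counts (0.968-fold, 0.825 to 1.14). Ntn1, the classical ligand of Dcc, had 22.2 and 28.6 counts. The 4 Unc5 receptors had between 158 and 646 counts, and all their intervals held 1. Unc5b had the largest log2 ratio among the netrin receptors, -0.23.

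**Figure D3:**
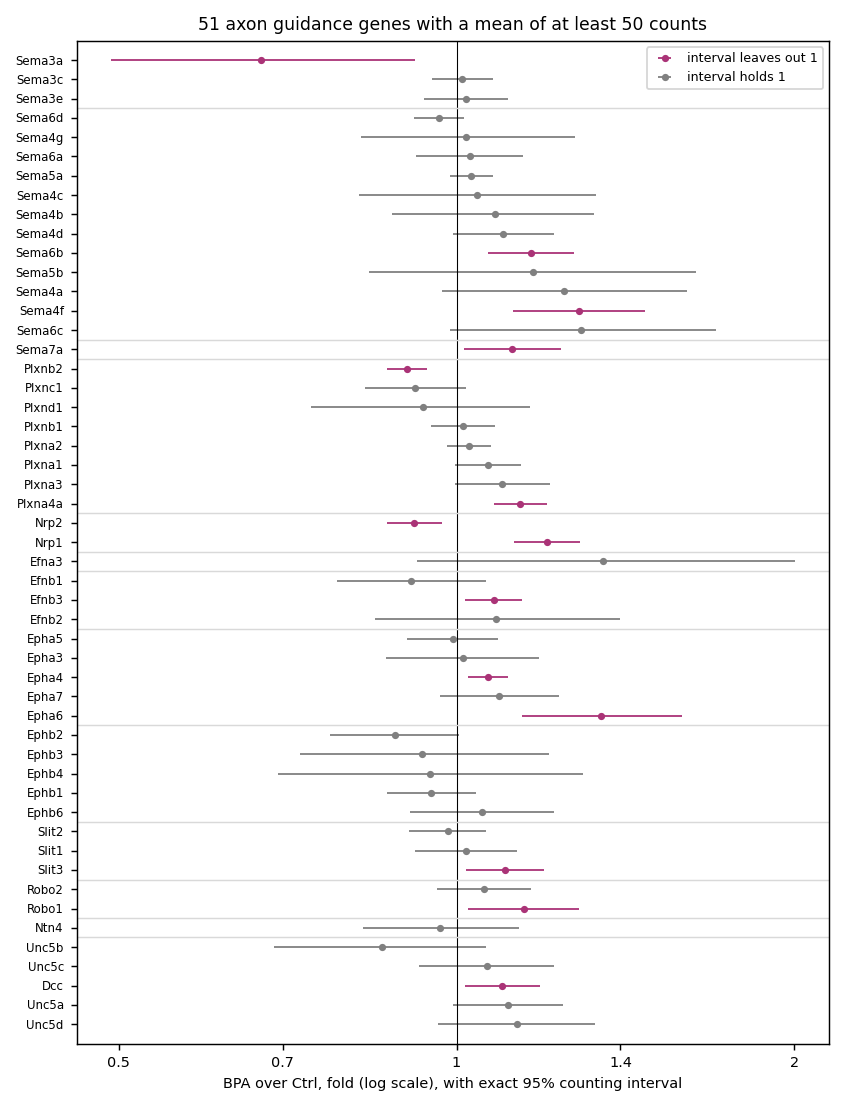
Fold of BPA over Ctrl counts (x axis, log scale), scaled by the library totals, with the exact 95% counting interval, for the 51 guidance genes averaging 50 or more counts, 1 library per condition. For 14 genes the interval leaves out 1, and their folds run from 0.670 for Sema3a to 1.34 for Epha6.

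The wider pathway was read from a list of 91 co-receptors, partners and downstream effectors that the symbols above do not take. The list may hold further guidance ligands and receptors. Of the 91 genes, 89 matched and 87 had enough counts. The median log2 ratio, not scaled by the library totals, was -0.0046, with 42 ratios above 0 and 45 below. Among those below, Enah, Farp1 and Srgap3 had scaled folds just above 1 (1.004, 1.002 and 1.003). Intervals lay above 1 for 8 genes (9.20%) and below 1 for 8 (9.20%), near the 10.2% and 8.41% of all genes. By 2-fold, 1 was higher and 1 lower, together 2.30% against 2.02% of all genes. The higher one was Dpysl5, a collapsin response mediator that carries semaphorin signals to microtubules, with 4.04 counts in Ctrl and 218 in BPA. The rest of its family on the list, Crmp1, Dpysl2, Dpysl3 and Dpysl4, had folds from 1.02 to 1.06. The lower one was the kinase Pak2, with 206 and 46.0 counts, which has another row in the table. Summed over both rows its log2 ratio was -1.97. Next highest were the kinase Cdk5, which phosphorylates collapsin response mediators (299 and 399 counts, 1.34-fold, 1.15 to 1.57), the Nogo receptor Rtn4r (121 and 153) and the kinase Abl1 (128 and 159). Next lowest were Adam10, the protease that cleaves ephrins (482 and 393, 0.821-fold, 0.716 to 0.939), the netrin antagonist Draxin (276 and 232) and the receptor Met (150 and 128). Rtn4r, Abl1, Draxin and Met had intervals that held 1.

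The second comparison asked which guidance transcripts carried m6A peaks and whether these differed after exposure. Peaks are stretches where the IP library exceeds the input. Their scores, which are higher for a smaller p-value, and their fold enrichments of IP over input are the authors' values for each peak. The listed false discovery rate (FDR) was 100% throughout, so it gives no check on any peak. A peak was listed for 23 of the 69 genes (33.3%), 18 in Ctrl (26.1%) and 19 in BPA (27.5%), with 14 genes in both. Of all gene symbols 20.9% had a peak in either list (17.7% and 17.9% in each). For the 56 guidance genes that reached an FPKM of 1 in both inputs it was 41.1%, against 35.8% of all such symbols (30.4% in Ctrl and 30.8% in BPA). Receptors had a peak in 14 of 34 cases and ligands in 9 of 35. All 3 Slits and both expressed Robo receptors, Robo1 and Robo2, had a peak, as did 4 of the 5 netrin receptors. At a score of at least 13 only Slit2 of the Slits and Dcc of the netrin receptors kept one, while Robo1 and Robo2 both did. Of 20 semaphorins 4 had a peak, and of the 5 ephrin-A ligands and the neuropilins none. Nrp2, Efnb3, Sema6d, Plxna4a and Nrp1 were among the 7 highest by FPKM and had no listed peak. Genes spanning at least 100 kb had a peak in 17 of 28 cases (60.7%), against 6 of 41 shorter ones (14.6%). Over all symbols these shares were 32.6% and 19.1%. Long genes were frequent among the guidance genes, 40.6% against 13.1% of all genes.

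The strongest of these peaks lay in Robo2, a Slit receptor. In the files' coordinates (1-based; the build is not given in the sources used here) it ran from 14759934 to 14760194 on chromosome 11, inside the gene and 82.2% of the way from its start. Its fold enrichment was 58.7 in Ctrl (rank 22 of 8192) and 41.3 in BPA (rank 62 of 8183), and ranks in lists of different length show no change. Its score was 3100 in Ctrl, a value that 159 peaks of that list share and 7 exceed, and 2691 in BPA. Whether the stretch is exonic was not examined, since no annotation of that build was used here. The other guidance peaks had fold enrichments of at most 16.3. The medians over all guidance peaks, 4.38 in Ctrl and 5.16 in BPA, were below those of all peaks (5.92 and 6.28).

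Several genes had a peak at the very start of the locus. Epha7, Ephb1, Plxna2 and Robo2 had a peak in both lists that reached the first transcribed base of the deposited locus. The Ephb1 peak (chromosome 8, 110218003 to 110218328, minus strand) had fold enrichments of 14.7 in Ctrl and 16.3 in BPA. The Plxna2 peak (chromosome 13, 117922569 to 117923139) had 10.04 and 13.6, and the Epha7 peak (chromosome 5, 48230146 to 48230382) had 12.8 and 11.8. The start peak of Robo2 was weaker, with 5.73 and 4.70. In all, 5 of 35 guidance peaks in Ctrl (14.3%) and 6 of 32 in the BPA list (18.8%) reached the first base, against 14.1% and 14.6% of all peaks, so this place was about as frequent as in the whole lists. To show what lies there, the sequence around the RefSeq start (GRCr8) is given for the 3 of these genes whose peak names a RefSeq transcript, with the 50 bases before the start in lower case and the first 30 transcribed bases in capitals. The windows are chr5:47771843-47771922 on the plus strand for Epha7, chr8:111823730-111823809 on the minus strand for Ephb1 and chr13:108691480-108691559 on the plus strand for Plxna2. Whether this start is the same base as in the deposited files was not examined, as the builds are not known to match.
Epha7: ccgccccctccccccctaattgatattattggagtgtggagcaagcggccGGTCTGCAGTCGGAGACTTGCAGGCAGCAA
Ephb1: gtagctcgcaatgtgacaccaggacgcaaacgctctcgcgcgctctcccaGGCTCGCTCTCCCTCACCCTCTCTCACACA
Plxna2: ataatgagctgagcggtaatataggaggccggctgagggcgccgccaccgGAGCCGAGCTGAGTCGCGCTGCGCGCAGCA
The printed stretches are 60%, 62.5% and 66.2% G or C, against a median of 53.8% over the same stretch (50 bases before the start, 30 after) of 33469 RefSeq gene starts. The letters GGAC, the core most often seen at m6A sites, were searched on the transcript strand in the first 50 transcribed bases, of which 30 are printed. They were absent there from all 3 genes and present in 18.5% of all starts, and the bases before the start were not part of the search. The start peaks are 237 bp (Epha7), 326 bp (Ephb1) and 571 bp (Plxna2) long, so most of each was not searched. Whether the peaks hold these letters is therefore not known, and 3 genes are too few to set against 18.5%.

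Towards the other end, guidance peaks were frequent in the last 20% of the locus. In the Ctrl list 18 of 33 peaks inside a locus (54.5%) lay there, against 23.0% of all such peaks, and in the BPA list 19 of 31 (61.3%) against 22.9%. The locus includes introns, and peaks of the same gene are not independent. Guidance genes were also longer, with 40.6% spanning at least 100 kb against 13.1% of all genes, and these shares were not matched for length. Robo1 alone gave 7 of the 18 and 7 of the 19. It had the most peaks of any guidance gene, 8 in Ctrl and 7 in BPA, and its strongest (chromosome 11, 13799862 to 13800170) had fold enrichments of 11.9 and 8.91. Among the EphA receptors, Epha3 and Epha7 each had a peak of 125 bp in both lists, at 82.6% and 82.5% of the locus, and Epha4 had one of 59 bp at 84.3% in the BPA list alone. That peak of Epha7 (chromosome 5, 48359062 to 48359186) had fold enrichments of 8.73 and 12.3, and that of Epha3 (chromosome 11, 485521 to 485645) 4.31 and 4.42. The Plxnb2 peak, at 13.7 and 10.7, lay outside the deposited locus of that gene.

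**Figure D4:**
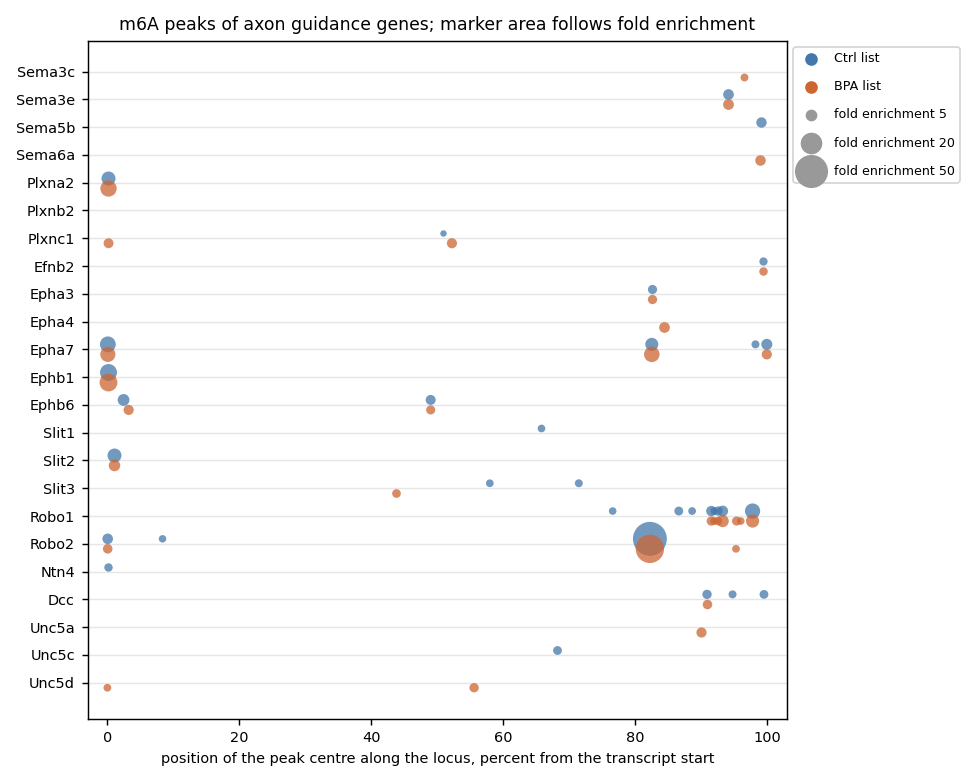
Position of each m6A peak's centre along its gene (x axis, percent of the locus from the transcript start) for the guidance genes with a peak, with the Ctrl list above and the BPA list below each line and marker area proportional to the authors' fold enrichment. Peaks stand at the start in Plxna2, Epha7, Ephb1 and Robo2 and in the last 20% in Robo1, Dcc and the EphA receptors, with fewer between. The peak of Plxnb2 and that of Slit3 outside the locus are not drawn.

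By position, 20 of the 35 peaks in Ctrl (57.1%, Wilson bounds 40.9 and 72.0 at 95%) shared 1 bp or more with a BPA peak, and 20 of 32 BPA peaks (62.5%, 45.3 to 77.1) overlapped one in Ctrl. Over the whole lists the shares were 73.3% and 73.4%. The guidance peaks were also of lower score, with 40% of the Ctrl and 50% of the BPA peaks under 13, which stands for a p near 0.05, against 30.5% and 28.7% of all peaks. At scores of at least 13 the overlap was 18 of 21 (85.7%) and 15 of 16 (93.8%), against 84.9% and 84.2% of all peaks, and at scores of at least 100 it was 7 of 7 and 6 of 6. The partner of such a peak could be weak, as for Slit2. Of the 20 overlapping Ctrl peaks 18 had identical edges in the other list.

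A peak in Ctrl alone was listed for 4 of the 69 genes (5.80%) and in BPA alone for 5 (7.25%), against 3.02% and 3.18% of all symbols. Among genes with an FPKM of 1 or more in both inputs these shares were 7.14% and 8.93%, against 4.97% and 5.43%. All these peaks had scores under 20. In the Ctrl list these were Ntn4 (score 5.70), Sema5b (19.8), Slit1 (4.54) and Unc5c (8.52). In the BPA list they were Epha4 (12.9), Sema3c (10.2), Sema6a (8.77), Unc5a (7.54) and Unc5d (4.40 and 6.15). Sema5b and Sema6a had theirs at the last base of the locus. Slit3 and Plxnc1 had peaks in both lists that did not overlap. Those of Slit3 were at least 27884 bp apart, and those of Plxnc1 at least 1885 bp.

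At the 20 shared sites fold enrichment was higher in the BPA list at 9 and lower at 11, with BPA over Ctrl ratios from 0.678 to 1.41 and a median of 0.888. Over all 6005 overlapping Ctrl peaks the median ratio was 1.06, the central 95% ran from 0.625 to 1.80, and 59.7% were higher in the BPA list. All guidance ratios lay inside that central range. The lowest belonged to Slit2 (chromosome 14, 67198166 to 67198237), with 9.99 in Ctrl and 6.77 in BPA, and its score went from 133 to 8.66. The next lowest were the strong Robo2 peak, at 0.703, and the Ephb6 peak near the start of the gene, with 7.11 and 5.31. The highest were the 125 bp Epha7 peak (1.41), the Plxna2 start peak (1.36) and a Robo1 peak with 6.02 and 7.69 (chromosome 11, 13775868 to 13776116). All 3 shared Robo2 and Slit2 sites were lower in the BPA list, while of the 5 shared Robo1 sites 3 were lower and 2 higher.

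**Figure D5:**
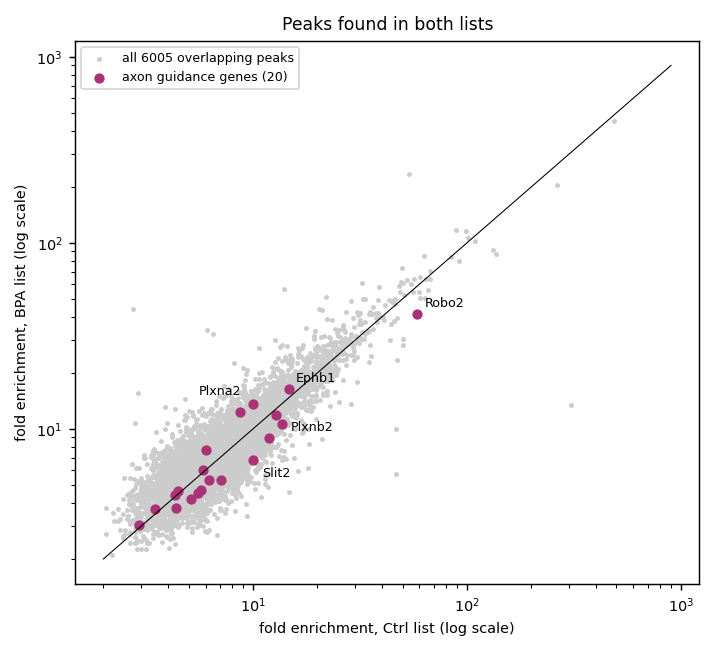
Fold enrichment in the BPA list (y axis) against the Ctrl list (x axis), both on log scales, for the 6005 Ctrl peaks that overlap a BPA peak (grey) and the 20 of guidance genes among them. The line marks equal values. The guidance peaks lie within the cloud of all peaks, with Robo2 the highest of them in both lists.

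Input level and peaks were also set side by side. The 23 guidance genes with a peak had a median FPKM of 16.4 (range 3.43 to 68.7), and the 46 without had a median of 3.72 (0 to 70.4). Among genes with enough counts the median log2 ratio of BPA over Ctrl was 0.066 for the 23 with a peak, with 18 higher and 5 lower, and 0.042 for the 40 without, with 23 higher and 17 lower. The same split over all genes was not made, and a link between peak and ratio was not tested. By depth, 7 of 16 guidance genes with means from 10 to 100 counts were higher, and 6 of 9 from 100 to 300. From 300 to 1000 counts it was 15 of 21, and from 1000 to 10000 it was 13 of 17. Robo1, Slit3, Dcc and Epha4 had both a peak and an interval above 1 in the input, whereas Plxnb2 had a peak and an interval below 1. The other 9 genes with intervals off 1, Efnb3, Epha6, Nrp1, Nrp2, Plxna4a, Sema3a, Sema4f, Sema6b and Sema7a, had no listed peak.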

How the data were processed

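Per the submitters' processing notes, cutadapt 1.9.3, STAR and HISAT2 2.0.4 were used; their roles, the quantifier, the peak caller's settings and the build were not given in the sources used here. The deposited input tables give an FPKM and an estimated count per gene, per the file headers. Of deposited counts under 100, 96.7% (Ctrl) and 96.8% (BPA) were whole multiples, within 0.01 of a step, of 1.01 and 1.02. The deposited peak lists, 1 per IP library, name MACS peaks with a score that scales the negative log10 of p, a fold enrichment ratio, a length and an FDR in percent, which was 100 throughout, per the file headers. 

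Log2 ratios used deposited counts with a pseudocount of 1, without further scaling, over genes counted 10 or more times on average. Folds were scaled by library totals, with exact (Clopper-Pearson) 95% intervals of rounded counts; shares have Wilson intervals. Starts were raised by 1 to count from 1. A gene symbol with several rows took the row with most counts for its locus. Of the 69 genes 68 matched GRCr8 RefSeq symbols, used for start sequences. Calls were tried on simulated counts with planted changes larger than 2-fold and counting noise alone, and overlaps on a few made-up intervals. Smaller changes and variation between cultures were not simulated. Protein sequences were planned but not used here. edgeR 4.0.16 and DESeq2 1.42.0 gave scaling factors of the rounded counts, with no test, and the DESeq2 factors were 1 for both libraries. scipy 1.17.1 and pandas 2.3.3 were used.

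Genes named were those 0.58 or more from 0 on the log2 scale, the highest FPKM and largest ratio per family (mean of at least 50 counts), the strongest peaks and the extremes of the pathway list. Others, such as those with intervals off 1, were named after their values were seen. The members and lists were chosen with earlier results of these data known.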

Additional observations from a re-analysis of the deposited data

How the results depend on the processing

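Of the counts and shares above, those set by low counts or weak peaks moved with the processing. Without a filter on low counts, 2 guidance genes were 2-fold higher (Epha1 and Ntn5) and 1 lower (Robo3), all at 3 counts or fewer in each library. The number with an interval above 1 fell from 11 to 6 with a 99% interval, and the number below 1 from 3 to 2. Guidance genes with a peak numbered 14 at a score of at least 13 and 7 at a score of at least 100, instead of 23. The share of Ctrl peaks with an overlap rose from 57.1% to 85.7% and 100% at these scores, and that of BPA peaks from 62.5% to 93.8% and 100%; fewer and stronger peaks are compared there by construction. With pseudocounts of 0.1 and 5, a mean of at least 50, TMM scaling, DESeq2 size factors or FPKM in place of counts, no guidance gene passed 2-fold and the median log2 ratio stayed between 0.047 and 0.066. The DESeq2 size factors were 1 for both libraries, so that setting repeats the main values by construction, also among the 144 values below. TMM factors of 0.999 (Ctrl) and 1.001 (BPA) could change little either. The 24 named guidance genes kept their log2 ratio within its counting interval in all 144 values so computed, but these intervals are wide for sparse genes: with FPKM and a pseudocount of 1, Plxnb3 was at -0.24, Efna1 at 0.41 and Sema3b at -0.38. The 4 genes at 0.58 or more from 0 became 1 with a pseudocount of 5, 1 with a mean of at least 50, 7 without a filter, 1 with FPKM and a pseudocount of 0.1 and 0 with FPKM and a pseudocount of 1, where 2.92% of all genes passed; this count was added after seeing the data. Division of counts by the smallest step left 11 and 3 intervals off 1. Folds without scaling by totals, an alternative chosen after seeing the data, gave 11 and 4. Ignoring letter case added no gene to the 63 with enough counts, and it was not tried on the peak lists. No paired analysis was possible because each group had 1 library. Depth limits the sparse genes: of 16 guidance genes with means from 10 to 100 counts, 1 (Sema3a) had an interval off 1.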
